A study of Caenorhabditis elegans with 4 samples.

Results

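The regions described here are 632 MDL-1::GFP binding peaks that lie in 130 dense groups, out of 9533 peaks in all. A dense group is a run of 4 or more peaks along a chromosome in which the stretch between each peak and the next is at most 1000 bp, counted from the last base of one to the first base of the next. The members were chosen by the measured positions of the peaks, and these come from the same comparison of antibody-recovered DNA with input DNA as the strengths and widths. All values below are therefore descriptions, and no statistical test was run. The peaks were mapped by chromatin immunoprecipitation and sequencing (ChIP-seq) in hermaphrodite larvae of Caenorhabditis elegans, strain OP106, at the fed L1 stage and 20 °C. All 4 libraries came from this strain, which carries unc-119(ed3) on chromosome III and the transgene wgIs106, an mdl-1 construct with TY1, EGFP and FLAG tags and a working unc-119 copy, brought in by bombardment. The 2 ChIP libraries were made with goat polyclonal antibodies against GFP and the 2 input libraries without them. Whole larvae were used, so a peak can come from any of their cell types. A single transgenic strain stands for the factor, and the protocol text speaks of embryos where the stage label says fed L1. The deposited list combines the replicates, so each peak has 1 strength and no replicate error, and depth is unknown.

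MDL-1 belongs to the Mad family of basic helix-loop-helix leucine zipper proteins. Such proteins bind DNA as dimers with a Max-type partner, which in the worm is MXL-1, at E-box sequences. In mammals Mad proteins oppose Myc at shared sites and act mostly as repressors. A ChIP-seq peak is a stretch where recovered fragments pile up over input, so closely spaced peaks can be separate contacts or pieces of a single broad enriched stretch, and peak positions alone do not separate these. Peak strength is given here as -log10 of the authors' q-value, so a higher strength means a smaller q-value. It reflects both enrichment and the number of reads. Positions are in WormBase build WS180. No genome or gene annotation of that build was used, so neither genes nor sequences are given for the groups.

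Dense groups were mostly small. Of the 130 groups, 76 held 4 peaks, 29 held 5, 13 held 6 and 5 held 7. The other 7 groups held from 8 to 12 peaks: 2 held 8, 2 held 12, and groups of 9, 10 and 11 peaks occurred once each. They made up 1.71% of the 7592 regions that remained after joining, the others being 243 groups of 3 peaks, 953 pairs and 6266 single peaks. The peaks in dense groups were 6.63% of all peaks and held 9.77% of all peak bases. The median group was 3758 bp long, with quartiles of 2977 and 5187 bp. The shortest group measured 1929 bp and the longest 18145 bp, and 3 groups were longer than 10 kb. Together they stretched over 579721 bp, or 0.580% of the chromosome stretches that lie between terminal peaks. Peaks covered a median of 50.7% of a group, from 20.2% to 82.3%, and the rest was gaps between them. Groups of 3 peaks had a median of 51.8% and pairs one of 53.3%, so median coverage was similar in dense and smaller groups. Larger groups have more gaps per peak, so these shares are not like for like.

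**Figure D1:**
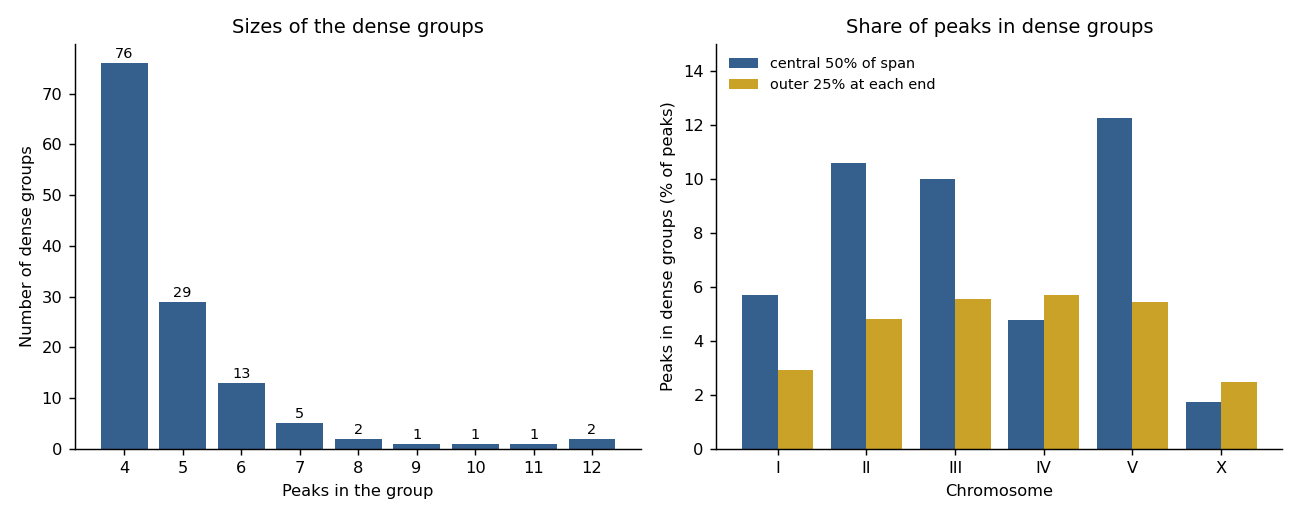
Left, number of dense groups (vertical axis) by number of peaks in the group (horizontal axis), with 76 groups of 4 peaks and 2 of 12. Right, percent of peaks that lie in dense groups (vertical axis) for each chromosome (horizontal axis), separately for peaks in the central 50% of the span and in the outer 25% at each end; the bars of V reach 12.2% and 5.42%, and the bars of IV and X are higher for the outer parts.

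Chromosomes differed in how many dense groups they held, and X had few. Chromosome V held 36 groups, II and III 29 each, IV 18, I 14 and X 4. As a share of the joined regions of a chromosome, dense groups made up 2.47% on V (95% Wilson interval 1.79 to 3.41), 2.21% on III (1.55 to 3.16) and 2.11% on II (1.47 to 3.01). The share was 1.40% on IV (0.885 to 2.20), 1.14% on I (0.679 to 1.90) and 0.429% on X (0.167 to 1.10). These intervals cover counting error only. They treat regions as independent draws, although membership is set by peak spacing, and are no test of a difference between chromosomes. They overlap among V, III, II, IV and I, and the interval of X ends below those of V, III and II. The order was not that of peak density. V had 88.3 peaks per Mb and I 101, yet 9.59% of the peaks of V and 4.45% of those of I were in dense groups. On II and III, with 115 and 124 peaks per Mb, the shares were 8.13% and 8.04%. On IV, with 92.9 peaks per Mb, it was 5.19%. X had both the lowest density, 61.4 peaks per Mb, and the lowest share, 2.13%. For smaller groups the chromosomes were closer together. Pairs were 10.2% of the regions on X and between 11.8% and 14.4% on the autosomes. Groups of 3 were 1.72% on X and between 2.68% and 4.03% on the autosomes. A larger group needs more short gaps in a row, so a difference between chromosomes in short gaps can widen with group size. Whether it did so here was not tested. V, the first in dense groups, had the lowest autosomal share of both pairs and groups of 3.

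Along the autosomes, dense groups lay more often in the middle. The central 50% of the span held 86 of the 126 autosomal groups (68.3%). Of autosomal peaks in dense groups 70.6% were central, against 60.4% in groups of 3, 60.8% in pairs and 53.7% of single peaks. Over all autosomal peaks the share was 56.9%. Of the peaks in the centre of V, 12.2% were in dense groups, and of those in its outer parts 5.42%. The corresponding shares were 10.6% and 4.81% on II, 10.01% and 5.56% on III, and 5.69% and 2.92% on I. The order was turned on IV, with 4.76% in the centre and 5.70% outside, and on X, with 1.74% and 2.49%. In steps of 10% of the span over all autosomes, the sixth step held 26 groups and 13.04% of its peaks were in them. The second step held 3 groups and 1.77% of its peaks were in them. The profile was not smooth: the third step reached 10.5% with 17 groups, the next one fell to 4.22% with 8 groups, and the last step, at the right ends, had 7.20% with 13 groups.

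The group with the most peaks and the larger span of the 2 groups of 12 was found on V, at V:6220884-6233314. From left to right its peaks had strengths of 2.59, 4.25, 6.37, 3.29, 2.27, 123, 3.81, 134, 66.9, 6.43, 10.9 and 2.41. The 3 strong peaks thus stood near the middle, with weak ones to both sides and 1 weak peak between them. The strongest was also the widest, at 2373 bp, and the narrowest measured 70 bp.

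The other group of 12 peaks, at III:7722539-7731372, was weak in most of its peaks. Its strengths ran 2.93, 6.43, 4.48, 3.29, 2.26, 2.86, 2.74, 3.15, 12.8, 29.5, 4.26 and 5.42. The first 8 peaks were all below 7, and the only 2 above 10 were neighbours towards the right end. Its median strength was 3.78 and its median peak width 248.5 bp, and peaks covered 39.3% of it. Another dense group, with 5 peaks, ended 1358 bp to its left.

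A group of 11 peaks spanned 16242 bp at V:10711745-10727986. Strengths of 109, 83.1, 127 and 69.4 stood in a row at its places 4 to 7. On the left they were preceded by 7.93, 5.32 and 6.05, and on the right followed by 8.12, 22.0, 22.0 and 5.27. The 4 strong peaks were 1024, 1349, 3009 and 1651 bp wide. The third peak was 1416 bp wide although its strength was only 6.05.

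The group of 10 peaks, at II:3951378-3959914, rested on a single strong peak. That peak, the ninth, had a strength of 80.5, and the second strongest had 6.76. The other strengths ran from 2.32 to 6.12. The seventh peak was the widest at 833 bp, with a strength of 6.12, and the ninth measured 826 bp.

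In the group of 9 peaks, at III:5835155-5844084, the strengths ran 18.98, 32.8, 21.4, 22.4, 2.59, 2.25, 57.4, 4.99 and 17.6. Strong and weak peaks alternated here in blocks, and 6 of the 9 were above 10. The strongest peak was only 539 bp wide, while the widest, at the second place, had 1706 bp.

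On I and IV no group had more than 6 peaks, and 4 groups on I and 3 on IV had that number. The longest of those on I, at I:5311024-5317082, had strengths of 2.36, 44.2, 86.7, 2.45, 2.90 and 87.2. Its 2 strongest peaks differed by less than 1 and had 3 and 6 as their places. The longest of those on IV, at IV:9667134-9672828, had strengths of 3.51, 14.5, 4.86, 18.4, 64.7 and 11.3. None of the peaks of the IV group was wider than 583 bp.

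**Figure D2:**
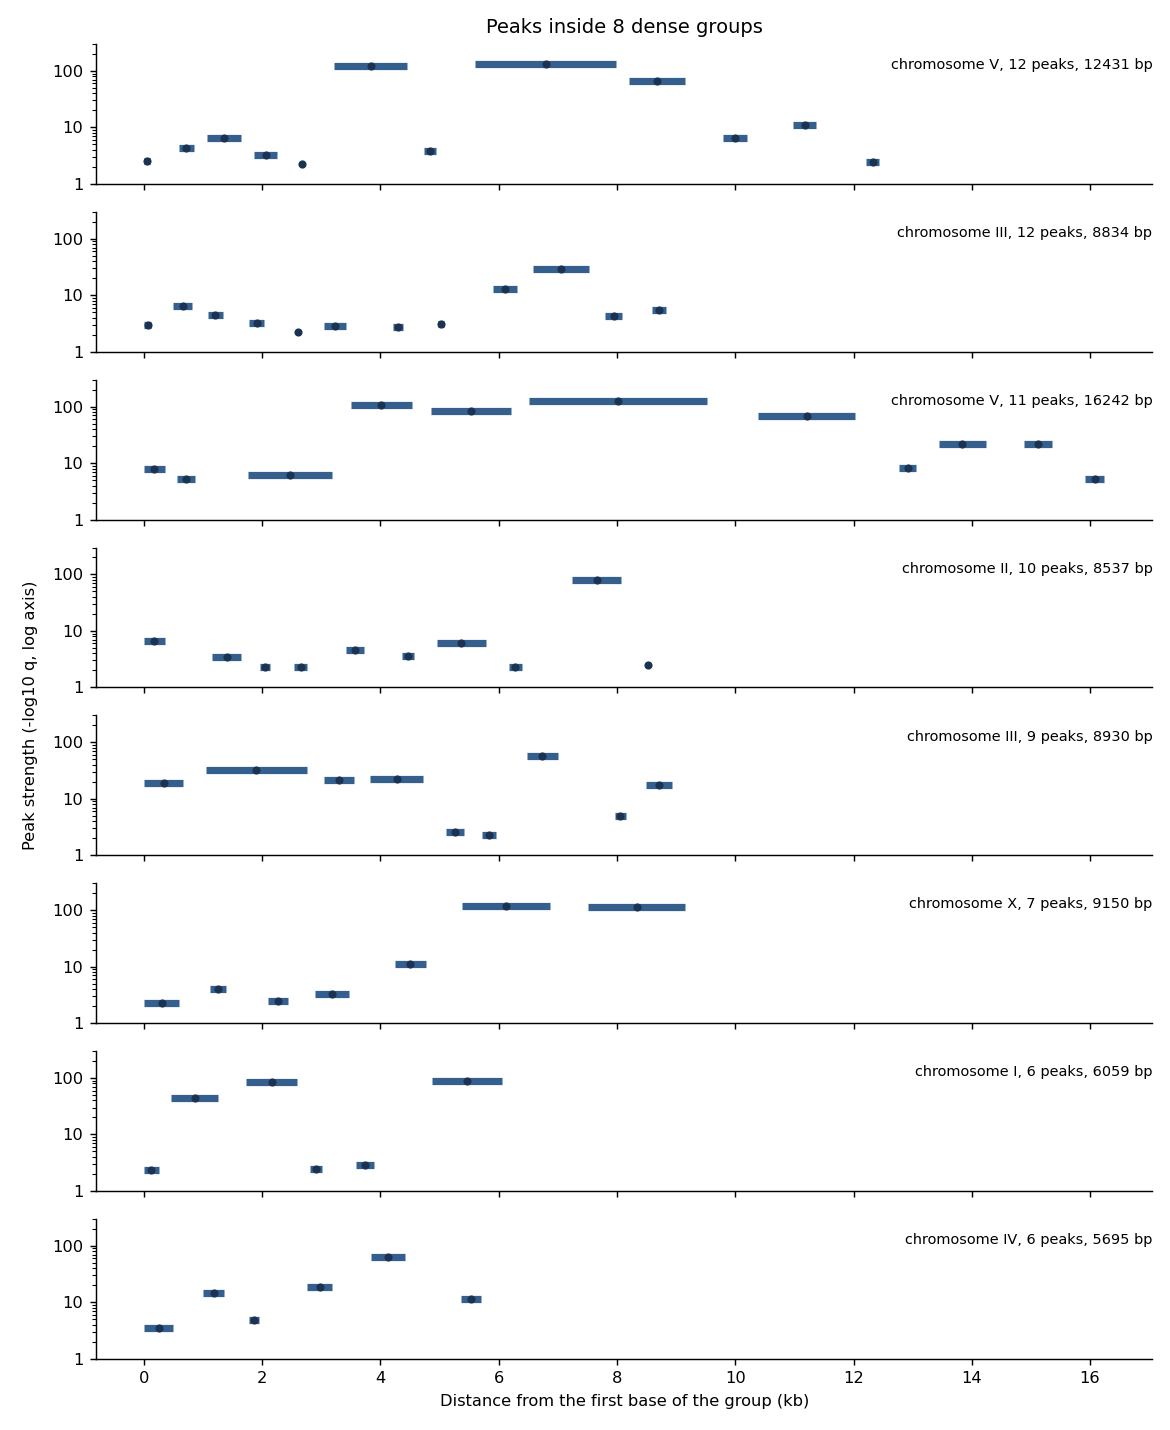
Peaks inside 8 dense groups, the 5 with the most peaks and the one with the most peaks (of equals the longest) on each other chromosome. Each bar spans 1 peak from its first to its last base, with the distance from the first base of the group in kb on the horizontal axis and the strength of the peak (-log10 q, log axis) on the vertical axis; dots mark peak centres. The V group of 12 peaks has 3 peaks between 66.9 and 134 near its middle, and the II group of 10 has 1 at 80.5 with all others at or below 6.76.

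X had only 4 dense groups, but 2 of them were among the 12 groups with 7 or more peaks. The group at X:4136695-4145844 held 7 peaks with strengths of 2.30, 4.08, 2.41, 3.33, 11.2, 119 and 114. Its strong peaks were the last 2, which were 1488 and 1639 bp wide. The group at X:13348311-13356867 also held 7 peaks, with strengths of 16.3, 3.64, 21.6, 5.32, 23.6, 7.83 and 22.4. Here stronger and weaker peaks took turns along the whole group. The third, at X:8017109-8023080, had 5 peaks, and strengths rose from 10.4 over 21.8 to 31.5 and fell over 27.2 to 5.29. The last, at X:12629196-12632092, had 4 peaks of 6.61, 2.10, 11.3 and 4.11. The median length of the X groups was 7265 bp, against 3745 bp for the autosomal groups, and the median width of their 23 peaks was 532 bp against 350 bp. X peaks are wider than autosomal ones in the whole list as well, and 4 groups are too few to set the X values apart.

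Other large groups were on II. The longest of all groups, 18145 bp at II:10541858-10560002, held 8 peaks and none of them was weak. Their strengths were 30.3, 21.3, 172, 130, 16.1, 78.0, 47.9 and 174. Peaks covered 82.3% of this group, the highest share of any dense group, and the widest peak measured 4820 bp. The other group of 8, at II:6825807-6831452, was 5646 bp long with a strongest peak of 25.4 and a weakest of 2.21. A group of 7 at II:9600018-9607343 had strengths of 8.33, 128, 6.75, 193, 31.0, 7.89 and 12.5, so a weak peak stood between its 2 strongest. The 5 groups of 7 peaks were this one, 2 on X, and 2 on V, at V:13369729-13376137 and V:12295097-12301125, with strongest peaks of 23.9 and 38.7.

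The strongest member of any dense group had a strength of 211 and was the third of 5 peaks at II:8740300-8748181. It was 4153 bp wide, and its neighbours had strengths of 26.8 and 24.7 on the left and of 4.48 and 3.91 on the right. At V:13654062-13659554 the 4 strengths rose from left to right, 10.02, 38.2, 56.8 and 206. At I:7079136-7088022 the second of 5 peaks reached 178, and the others ran from 6.36 to 25.2. Besides these 3, the groups starting at 9600018 and 10541858 on II completed the 5 groups with the strongest members.

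At the other extreme, some groups held no strong peak. In the group at III:9509847-9512093 the 4 strengths were 2.49, 2.81, 2.98 and 2.07, and in that at II:7029479-7032648 they were 3.03, 2.25, 2.38 and 3.36. The latter also had the lowest coverage of all groups, 20.2%, with no peak wider than 200 bp. The groups at V:7546883-7548856, II:7614375-7616303 and I:9424661-9428474 had strongest peaks of 4.98, 5.54 and 5.59. In all, 13 of the 130 groups had no peak above 10. The same held for 68 of the 243 groups of 3 and for 487 of the 953 pairs. Over all peaks 27.9% were above 10, and fewer peaks make a group without any likelier by number alone.

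**Figure D3:**
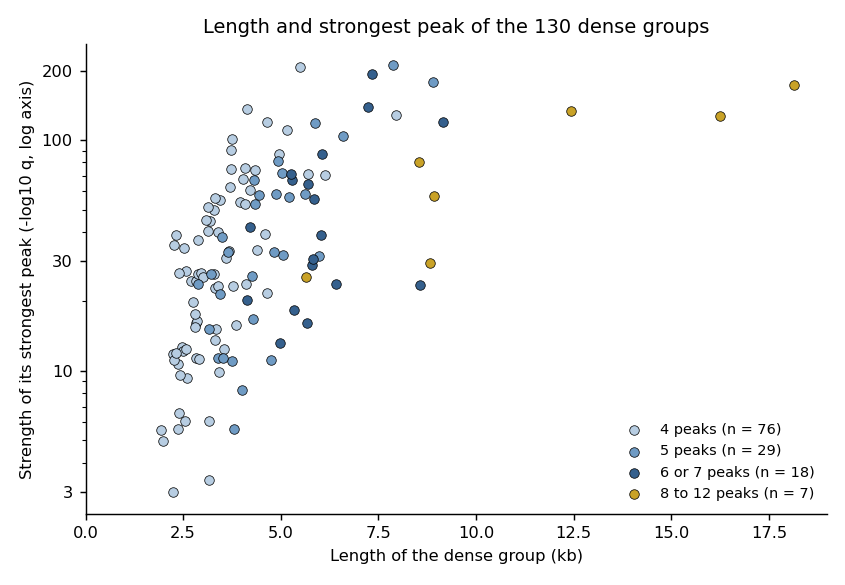
Length of each of the 130 dense groups in kb (horizontal axis) and the strength of its strongest peak (-log10 q, log axis), coloured by the number of peaks. Groups of 4 peaks run from 1929 to 7955 bp and the strongest peaks from 2.98 to 211; the 3 groups beyond 10 kb all have a strongest peak above 100.

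Longer groups had stronger strongest peaks. Spearman's rho of length and strongest peak was 0.64 over the 130 groups, and that of the number of peaks and the strongest peak 0.25. Length includes the widths of the peaks, which rise with strength, so both values are descriptions of measures that share their source. The median strongest peak was 26.3 in groups of 4, 32.7 in groups of 5, 40.3 in groups of 6 or 7 and 80.5 in the 7 groups of 8 to 12. The strongest of several peaks becomes larger with their number by construction. The median over all peaks of these groups moved little and in no steady order: 7.06, 7.77, 7.26 and 6.59.

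Inside a dense group a few strong peaks stood beside weak ones. Ordering peaks by strength makes the values fall by construction, so the steps are given for their size. The strongest peak had a median of 31.2 (quartiles 15.9 and 62.2), the second 13.4 (6.89 and 25.6), the third 6.04 (3.95 and 11.2) and the fourth 3.37 (2.62 and 5.76). The weakest peak of a group had a median of 2.78. Smaller groups had such steps too, with medians of 20.0, 6.49 and 3.18 in groups of 3 and of 9.83 and 3.29 in pairs. In dense groups the strongest exceeded the second by a median of 13.2, by less than 5 in 39 groups and by more than 50 in 18. Of all peaks in the list 27.9% were above 10 and 25.9% below 3, and a larger group is likelier to hold either by number alone, so the counts per group are a description. Exactly 1 peak above 10 was present in 40 groups, 5 groups had all their peaks above 10, and 80 groups (61.5%) held at least 1 peak below 3. A peak below 3 was also held by 44.9% of groups of 3 and 42.5% of pairs. In dense groups the difference between the strongest and the weakest member had a median of 27.7 and ran from 0.909 to 207. A strongest peak above 10 was present in 117 of the 130 groups (90%), and one above 100 in 16 (12.3%). In groups of 3 these shares were 72.0% and 6.17%, and in pairs 48.9% and 1.57%. Over all peaks 0.85% were above 100.

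**Figure D4:**
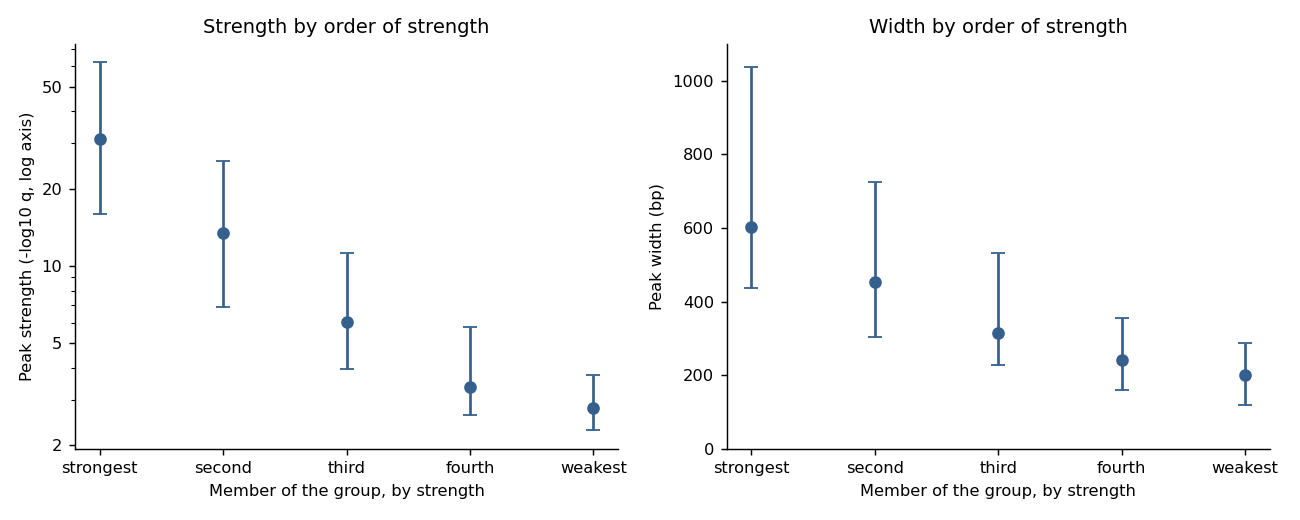
Strength (left, -log10 q, log axis) and width (right, bp) of the members of the 130 dense groups, ordered within each group from the strongest to the fourth, and the weakest of each group. Points are medians over the 130 groups and bars run from the lower to the upper quartile; medians fall from 31.2 to 2.78 in strength and from 603.5 to 200 bp in width.

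Widths followed the order of strengths. The median width was 603.5 bp for the strongest peak, 454.5 bp for the second, 315.5 bp for the third, 241 bp for the fourth and 200 bp for the weakest. The strongest peak was also the widest in 82 of 130 groups (63.1%). This held for 175 of 243 groups of 3 (72.0%) and 774 of 953 pairs (81.2%), and fewer peaks make it likelier by number alone. Spearman's rho of strength and width within a group was above 0 in 124 groups and below 0 in 5, with a median of 0.80, and it was 1 in 24 groups. The widest peak was a median of 5.06 times as wide as the narrowest. Strength and width are related in the whole list too.

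The place of the strongest peak showed no common pattern over group sizes. The strongest peak was neither the first nor the last in 79 of 130 groups (60.8%), and 58.9% of all places were such inner places. Shares of inner places are pooled over peaks, so larger groups weigh more in them than in the share of groups. In groups of 4 it was inner in 46 of 76 (60.5%, with 50% of places inner), in groups of 5 in 14 of 29 (48.3%, with 60% inner) and in groups of 6 or more in 19 of 25 (76%, with 72.7% inner). It was the first in 26 groups and the last in 25. Inner peaks had a median strength of 7.54, last peaks of 7.16 and first peaks of 6.59, and quartile ranges overlapped throughout (3.49 to 22.0, 4.12 to 18.5 and 3.01 to 15.2). In groups of 4 the medians from left to right were 5.82, 10.2, 7.998 and 6.19, with the strongest peak at these places in 16, 25, 21 and 14 groups. In groups of 5 they were 11.3, 10.8, 5.94, 5.02 and 8.05, and the strongest peak was at either end in 15 of 29. The second strongest peak lay beside the strongest in 69 of 130 groups (53.1%), where 45.2% of the other places, averaged over groups, were beside it. Gaps beside the strongest peak had a median of 510 bp (209 gaps) and the other gaps inside groups one of 485 bp (293 gaps).

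Compared with smaller groups and single peaks, peaks in dense groups were stronger above all in their upper quartile, and groups of 3 were close to them. The median strength was 7.07 in dense groups (632 peaks), 6.63 in groups of 3 (729 peaks), 5.23 in pairs (1906 peaks) and 4.80 for single peaks (6266 peaks). The lower quartiles lay close together, from 2.88 for single peaks to 3.43 for groups of 3, with 3.37 in dense groups. The upper quartiles were 20.3 in dense groups, 17.8 in groups of 3, 11.6 in pairs and 9.99 for single peaks. Strengths above 10 were found for 260 peaks in dense groups (41.1%), against 27.9% of all peaks, 38.5% in groups of 3 and 24.98% of single peaks. Strengths above 100 were found for 23 of them (3.64%), against 0.85% of all peaks and 2.19% in groups of 3. Strengths below 3 were found for 123 (19.5%), against 25.9% of all peaks and 18.4% in groups of 3.

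Widths moved in the same way. The median width was 355.5 bp in dense groups, 354 bp in groups of 3, 294 bp in pairs and 274 bp for single peaks. Wider than 1000 bp were 61 peaks in dense groups (9.65%), against 2.73% of all peaks and 7.27% in groups of 3. Narrower than 200 bp were 120 (18.99%), against 27.2% of all peaks and 18.5% in groups of 3. The difference was largest among strong peaks, where strengths also differed. In the strongest 25% of all peaks, those in dense groups had a median width of 621 bp, those in groups of 3 one of 617 bp, pairs one of 502.5 bp and single peaks one of 425 bp. In that class the median strengths were 26.3 in dense groups and 18.8 for single peaks, so these widths are not at equal strength. In the next 25%, with median strengths of 7.15 and 7.31, the widths were 343 and 310 bp, and groups of 3 had 356 bp. In the third 25% the widths were 241 bp in dense groups, 228.5 bp in groups of 3 and 221 bp for single peaks. In the weakest 25% the medians were 161 bp in dense groups, 170 bp in groups of 3 and 147 bp for single peaks. Groups of 3 were thus close to dense groups in each class, and wider in 2 of them. Without X the medians of dense groups and single peaks were 623 and 407.5 bp in the strongest 25%, and 157 and 135 bp in the weakest.

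These differences depend on how distance is measured. The gap runs from edge to edge, so a wide peak comes closer to its neighbours than a narrow one with the same centre, and wide peaks are also strong. When peaks were joined by the distance between their midpoints, up to 1000 bp, only 154 peaks lay in 35 groups of 4 or more, and their medians fell below those of single peaks, with strengths of 4.37 and 5.21 and widths of 281.5 and 289 bp. That rule in turn keeps wide peaks apart. With midpoints up to 1500 bp, which left about as many members (650), the medians were 5.48 and 5.07 in strength and 315.5 and 283 bp in width.

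**Figure D5:**
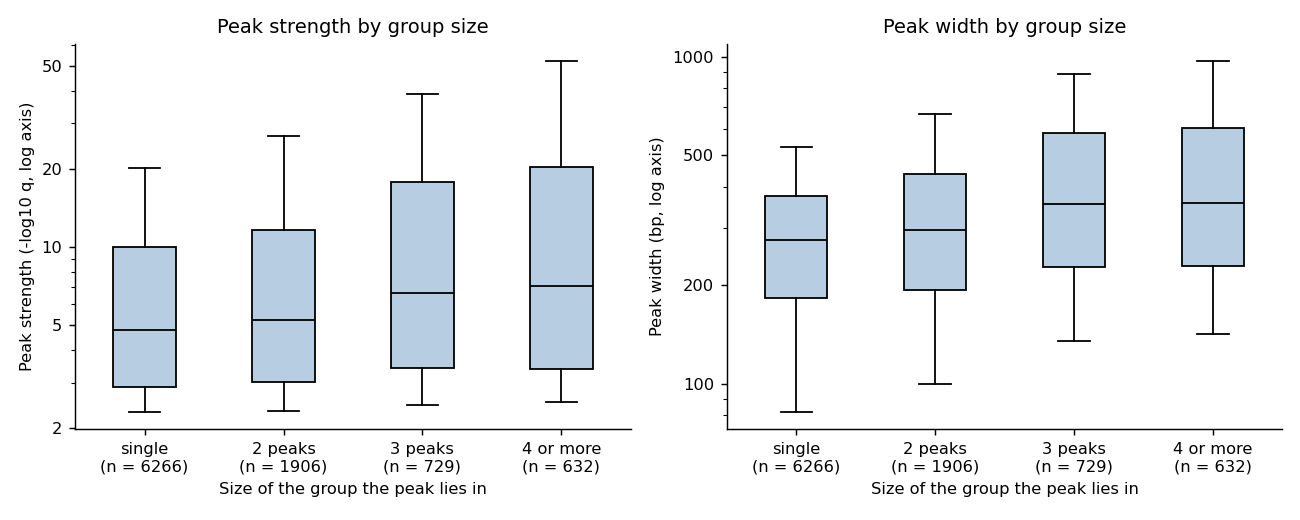
Strength (left, -log10 q, log axis) and width (right, bp, log axis) of peaks by the size of the group they lie in, with the number of peaks under each box. Boxes run from the lower to the upper quartile with the median inside, and whiskers from the 10th to the 90th percentile; the median strength is 4.80 for single peaks and 7.07 in dense groups, and the boxes overlap.

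Many of the strongest peaks of the whole list had close neighbours. Over all peaks 6.63% lay in dense groups. Of the 10 strongest peaks, 4 lay in dense groups, at ranks 2, 4, 6 and 10. Of the 100 strongest, 27 lay in 19 dense groups, and of the 953 strongest 134 (14.1%). Of the 260 peaks wider than 1000 bp, 61 (23.5%) lay in 43 dense groups, among them 3 of the 5 widest, and the edge-to-edge rule brings wide peaks nearer to their neighbours. By contrast 4.99% of the peaks with a strength below 3 lay in dense groups.

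The joining rule limits gaps inside groups to 1000 bp. The 502 gaps of the dense groups had a median of 491.5 bp (quartiles 314 and 691 bp), and 50.6% of them were under 500 bp. In groups of 3 the median was 562.5 bp and in pairs 583 bp, with 43.0% and 40.6% under 500 bp. No gap in the list was under 200 bp. Beyond their own ends, dense groups also had near neighbours. The nearest other peak was a median of 2005 bp away from a dense group, 2150 bp from a group of 3, 2612 bp from a pair and 3611 bp from a single peak. By the joining rule each of these distances is above 1000 bp, and a region has 2 ends whatever its size.

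At a larger scale the surroundings differed less. Within 250 kb to each side of the middle, leaving out the peaks of the region itself, an autosomal dense group had a median of 56 other peaks (121 groups, quartiles 47 and 67). Groups of 3 had 55, pairs 56 and single peaks 53 (quartiles 43 and 64). Among the 10 groups named as having the most peaks, the neighbourhoods ran from 79 other peaks around the 12 peaks at V:6220884-6233314 to 32 around the 7 peaks at X:4136695-4145844.

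Some dense groups stood next to each other. Neighbouring dense groups on a chromosome were a median of 443 kb apart, but 12 of the 124 such pairs were within 20 kb. The closest pair, groups of 5 and 8 peaks on II, was separated by 1050 bp, between the bases 6824756 and 6825807. On IV 2 groups of 4, at IV:4018995-4022763 and IV:4024107-4029797, were 1343 bp apart. On II 3 groups of 4 followed each other between 14036174 and 14052141, with 4267 and 2237 bp between them. The 12 peaks at V:6220884-6233314 had a group of 4 at 6678 bp on the left and another at 13001 bp on the right.

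Groups just inside and just outside the threshold of 1000 bp overlapped in strength. Of the groups of 4, 11 had a largest gap between 950 and 1000 bp and would fall apart at a slightly smaller limit. Their strongest peaks ran from 3.36 to 90.6, with a median of 26.3. Just outside, 7 runs of 4 or more peaks were interrupted once by 1003 to 1048 bp and were therefore counted as smaller groups. Their strongest peaks ran from 11.6 to 40.6, with a median of 20.1. These runs held 4 to 6 peaks and the groups inside only 4, so the medians are not over equal sizes. By number of peaks, the 243 groups of 3 had a median strongest peak of 20.0 and a median length of 2367 bp, and the 76 groups of 4 had 26.3 and 3178 bp.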

How the data were processed

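One list of peaks was analysed. Per the file headers, its coordinates are those of WormBase WS180, and its source column names PeakSeq. The deposited q-values, 1 for each peak and all below 0.01, are the authors' own. Not given in the sources used here are the aligner, the read filters, the PeakSeq version and how replicates were combined, and no read counts were used. Strength is -log10 of the deposited q-value, and width is the last minus the first base plus 1. Peaks were sorted by chromosome and start and joined at gaps of at most 1000 bp. Chromosome centres are the middle 50% of the stretch between a chromosome's terminal peaks, and a group belongs there if the mean place of its peaks does. Percentages of regions carry 95% Wilson intervals. The named groups are the 10 with the most peaks (of equals the longer), the 5 longest, the 5 with the strongest and the 5 with the weakest strongest member, and the one with the most peaks on each chromosome. All 4 groups on X, close pairs of groups and groups at the threshold were added after their values were seen. The members and measures were chosen with earlier results of these data known. The gene table at hand is of build WBcel235 and was not used. The joining code was checked on simulated data with known group sizes, all of which it recovered. The software was matplotlib 3.10.9, scipy 1.17.1, pandas 2.3.3 and numpy 2.4.6 under Python 3.11.15.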

Additional observations from a re-analysis of the deposited data

How the results depend on the processing

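No paired analysis was possible because the combined list holds no value per library, and leaving out single replicates was likewise not done. Depth is unknown, so weaker sites below the threshold are not counted. The midpoint limit of 1500 bp and the differences of medians from single peaks, main values included, were chosen after seeing the data. A count was taken as kept within 1.5 times the main count, a percentage within its 95% Wilson interval and a median within its 95% binomial interval. For strength and width the binomial intervals treat peaks as independent draws, although they share groups and were chosen by spacing. The interval of a difference from single peaks is the dense-group interval less the single-peak median, which was held fixed. Of 89 values under 9 alternatives, 48 were kept in this sense. The intervals are wide for shares of few groups. The median percentile of list place is counted as not kept, but it was held to the interval of the strength, which has another scale. Its label therefore says nothing about that result. The causes of the other changes were not tested.

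With a joining gap of 500 bp there were 24 groups with 103 peaks, a median length of 3176 bp, strength of 8.33 and width of 497 bp, 219 bp above single peaks; 0% of groups were on X and 87.5% of autosomal groups were central. A gap of 2000 bp gave 316 groups, 1658 peaks and 5284 bp. Groups of 3 or more numbered 373 with 1361 peaks and 2731 bp, and the strongest peak was inner in 44.2%, since 1 of 3 places is inner in a group of 3. Groups of 5 or more numbered 54 with 328 peaks, 5271 bp long, with peaks of 400 bp, 126 bp above single peaks. Peaks at or above the median strength gave 29 groups, 140 peaks, 5493 bp, a median strength of 19.4 (8.82 above single peaks) and width of 602.5 bp (239.5 bp above), and an inner strongest peak in 72.4%.

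With midpoints up to 1000 bp there were 35 groups, 154 peaks and a length of 2690 bp, with 0% on X. Their median strength of 4.37 and width of 281.5 bp differed from single peaks by -0.84 and -7.5 bp, so both differences turned. With midpoints up to 1500 bp the medians were 5.48 and 315.5 bp, and the differences 0.41 and 32.5 bp. Ranked by list place and given as a percentile, the median strength was 61.4 in dense groups and 47.6 for single peaks. Without peaks under 50 bp there were 117 groups with 560 peaks, 72.6% of autosomal groups were central, and all 11 results were kept by these margins. The share of groups whose strongest peak was also the widest stayed between 58.6% and 68.9% in the 8 that regrouped peaks.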
